A study of Homo sapiens with 12 samples.

Results

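A set of 10 genes on chromosome 12, within chr12:10845849-11171611 (GRCh38.p14), was followed in the total RNA of HEK293 cells, an established human embryonic kidney line: the bitter taste receptor genes TAS2R13, TAS2R14, TAS2R50, TAS2R20, TAS2R19, TAS2R31, TAS2R46 and TAS2R30, and the secretory proline-rich protein genes PRH1 and PRR4. They are 10 of the 60483 genes counted, taken by name from the comparison of mut with WT cells, and because that comparison chose them their differences are described without a test. The mut line produced a catalytic mutant of the 3′-to-5′ exoribonuclease DIS3L2 and the WT line produced the wild-type enzyme. In both lines the enzyme carried a C-terminal FLAG tag, its sequence was recoded, and the plasmid, integrated with the Flp-In T-REx system, also expressed sh-miRNAs against the endogenous DIS3L2 mRNA; both lines received 100 ng/ml doxycycline for 3 days. There were 3 total RNA libraries and 3 small RNA libraries per line. The labels do not say whether replicates were separate cultures or whether a line was 1 clone, so the p-values reflect differences among libraries that may be technical, and the DIS3L2 variant cannot be told apart from other differences between the lines. In such bulk RNA, fewer cells that express a gene and less RNA per cell cannot be told apart either.

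DIS3L2 had 10242, 8858 and 9496 reads in mut and 7382, 10386 and 6322 in WT, or 1092 ± 51.6 in mut and 784 ± 25.8 in WT, in CPM (SD, n = 3 each; log2 fold change 0.48, SE 0.05, edgeR adjusted p = 1.9e-07). CPM are counts scaled to equal library size, with the sizes adjusted by the TMM method. The DIS3L2 sum may include transgene reads and is no test of the silencing. The libraries held 8467957 to 9009114 gene counts in mut and 8315986 to 12675042 in WT.

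Bitter taste receptors of the TAS2R family are G protein-coupled receptors that sit on taste cells of the tongue and on chemosensory cells of the airway and gut. A bound bitter compound activates a G protein containing gustducin, phospholipase C releases calcium through an inositol trisphosphate receptor, and the cation channel TRPM5 opens. Most human TAS2R genes have a coding sequence without introns and lie in clusters on chromosomes 7 and 12, and several neighbours on chromosome 12 are close copies of each other. PRH1 encodes an acidic proline-rich protein of saliva and PRR4 a proline-rich protein of tears.

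The cluster has a nested layout in the RefSeq annotation of GRCh38.p14. PRH1 spans 290.6 kb, chr12:10880965-11171611, and all 8 receptor members lie inside that span. The 6 receptors with a promoter entry in the RefSeq table, as well as PRH1 and PRR4, are on the minus strand. PRH1 has an upstream start, above all of the receptors, and a downstream start below them. The 250 bases before both PRH1 starts are printed 5′ to 3′ next to those of 3 of the 6 receptors with an entry. A reader can thus compare start regions inside and at the edge of the span. Capitals mark matches on either strand to the TATA box core TATAAA, to the CCAAT box motif CCAAT, to the GC box motif GGGCGG or to the E-box motif CACGTG; TTTATAAA in capitals is an overlapping match to TATAAA on both strands.
PRH1 upstream start, chr12:11171612-11171861, minus strand: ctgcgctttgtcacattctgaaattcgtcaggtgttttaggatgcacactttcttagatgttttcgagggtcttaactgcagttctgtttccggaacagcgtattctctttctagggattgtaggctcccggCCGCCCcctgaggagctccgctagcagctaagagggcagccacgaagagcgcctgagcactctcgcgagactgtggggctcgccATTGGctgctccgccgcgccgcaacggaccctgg
PRH1 downstream start, chr12:10884256-10884505, minus strand: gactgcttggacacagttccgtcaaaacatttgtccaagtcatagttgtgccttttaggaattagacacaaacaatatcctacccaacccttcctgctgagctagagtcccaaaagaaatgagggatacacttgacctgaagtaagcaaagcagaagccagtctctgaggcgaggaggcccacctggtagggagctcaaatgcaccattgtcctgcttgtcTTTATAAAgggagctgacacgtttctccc
TAS2R30, chr12:11134645-11134894, minus strand: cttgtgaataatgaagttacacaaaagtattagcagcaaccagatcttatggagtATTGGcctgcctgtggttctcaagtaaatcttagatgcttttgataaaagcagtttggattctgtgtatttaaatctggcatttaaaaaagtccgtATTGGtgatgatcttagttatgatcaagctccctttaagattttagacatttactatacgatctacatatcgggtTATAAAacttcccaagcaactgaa
TAS2R19, chr12:11022621-11022870, minus strand: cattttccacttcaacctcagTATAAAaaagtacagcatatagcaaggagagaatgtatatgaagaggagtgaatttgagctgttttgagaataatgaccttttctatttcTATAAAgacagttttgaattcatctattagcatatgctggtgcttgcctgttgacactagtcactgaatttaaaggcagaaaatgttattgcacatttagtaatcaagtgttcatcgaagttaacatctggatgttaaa
TAS2R50, chr12:10986913-10987162, minus strand: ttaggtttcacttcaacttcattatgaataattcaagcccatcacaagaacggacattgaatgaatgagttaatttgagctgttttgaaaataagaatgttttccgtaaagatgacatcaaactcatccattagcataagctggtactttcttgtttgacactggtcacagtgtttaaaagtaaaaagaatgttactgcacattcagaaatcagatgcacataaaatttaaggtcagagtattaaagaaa

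The upstream PRH1 window had 57.2% G and C, near the median of 58.0% over 35116 RefSeq windows of the same length, and 18 CpG dinucleotides, above the median of 11. The 6 receptor windows had 29.6% to 36.8% G and C and 0 to 3 CpG dinucleotides; between 1.32% and 7.85% of all windows had a lower G and C share than each of them. TATAAA was present in 5 of the 9 windows of members (10.7% of all windows), CCAAT in 4 (32.0%), GGGCGG in 1, the upstream PRH1 window (42.6%), and CACGTG in 0 (6.34%). TAS2R50 and TAS2R19 shared 69.6% of the aligned window and TAS2R20 and TAS2R30 66.8%, the closest of the 15 receptor pairs. These matches describe letters only. TAS2R31 and TAS2R46 were not matched in the promoter table.

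All 10 members were lower in mut cells. Summed over the members, the mut libraries held 180, 215 and 187 reads and the WT libraries 478, 588 and 467. That is 22.3 ± 2.67 CPM in mut and 51.0 ± 5.82 CPM in WT (SD, n = 3 each), a log2 ratio of −1.19, or 56.3% lower. In each of the 10 genes all 3 mut libraries lay below all 3 WT libraries, as they did in 21.2% of the 14409 genes tested; since the genes were chosen from this contrast, nothing is read from that count. The members' log2 fold changes (mut over WT, edgeR) ran from −1.66 to −0.95 with a median of −1.21, beside a median of −0.01 over all genes tested, of which 1.21% were at least 1.9-fold lower. All 10 members passed the filter on low counts. Enough reads in 3 libraries suffice for it, so a gene low in mut can pass through WT alone, as PRH1 did. TAS2R13, TAS2R46 and TAS2R50 also fell short of 3 mut libraries with enough reads and needed WT. No count exceeded 42 in a mut library or 103 in a WT library.

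**Figure D1:**
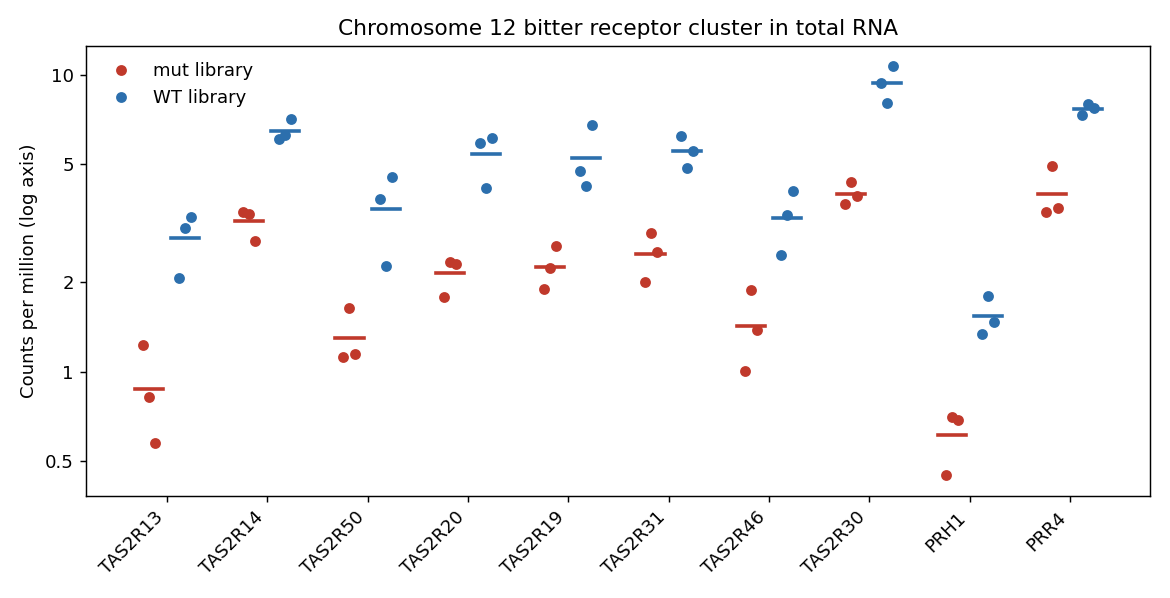
CPM (log axis) of the 10 genes in each total RNA library, mut in red on the left and WT in blue on the right of each pair; points are libraries and bars are means of 3. In every gene the 3 mut points lie below the 3 WT points, from PRH1 at 0.614 against 1.54 CPM to TAS2R30 at 3.98 against 9.39 CPM.

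TAS2R30 (chr12:11132958-11134644), a receptor for denatonium and the member nearest to the upstream PRH1 start, had 33, 37 and 34 reads in mut and 91, 103 and 87 in WT. It carried the most reads of the 8 receptors in both groups, averaging 3.98 ± 0.34 CPM for mut and 9.39 ± 1.31 CPM for WT, with a log2 fold change of −1.22 (SE 0.17). TAS2R46 (chr12:11061365-11062294), a broadly tuned receptor, had 9, 16 and 12 reads in mut and 24, 43 and 33 in WT (−1.20, SE 0.28). The highest mut library and the lowest WT library of TAS2R46, at 1.88 and 2.48 CPM, were closer to each other than those of TAS2R30 and TAS2R31. TAS2R31 (chr12:11030387-11031407), which responds to saccharin, had 18, 25 and 22 reads in mut and 60, 62 and 45 in WT (−1.14, SE 0.21). Its groups were farther apart, with 2.94 CPM as the highest mut and 4.86 CPM as the lowest WT value.

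TAS2R19 (chr12:11021619-11022620), near the middle of the cluster, had 17, 19 and 23 reads in mut and 46, 54 and 55 in WT, a log2 fold change of −1.17 (SE 0.23). TAS2R20 (chr12:10995961-10998304) had 16, 20 and 20 reads in mut and 57, 53 and 50 in WT (−1.29, SE 0.23). Both stood at a little over 2 CPM in mut and a little over 5 CPM in WT. TAS2R50 (chr12:10985913-10986912), a receptor for the plant bitter andrographolide, had 10, 14 and 10 reads in mut and 37, 29 and 37 in WT (−1.38, SE 0.30). Its WT libraries spread more widely than its mut libraries, with 1.30 ± 0.30 CPM in mut and 3.55 ± 1.16 CPM in WT.

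TAS2R14 (chr12:10937410-10939263), among the most broadly tuned bitter receptors, had 31, 29 and 24 reads in mut and 59, 80 and 58 in WT. With a log2 fold change of −1.01 (SE 0.18) it had the smallest difference of the 8 receptors. TAS2R13 (chr12:10907926-10909562), the receptor farthest from the upstream PRH1 start, had 11, 7 and 5 reads in mut and 20, 39 and 27 in WT, and with −1.66 (SE 0.33) the largest. It had the fewest reads of the 8 receptors, averaging 0.875 ± 0.33 CPM for mut and 2.81 ± 0.66 CPM for WT. The standard errors of the 8 receptors ran from 0.17 to 0.33, and differences between receptors were not tested.

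PRH1 itself was counted at 4, 6 and 6 reads in mut and 13, 23 and 12 in WT (−1.34, SE 0.38). These are the fewest reads of any member. Of the member fold changes, this was the 1 that shifted by more than its replicate SD in any alternative, to −1.14 without mut library 1. PRR4 (chr12:10845849-10849475) had 31, 42 and 31 reads in mut and 71, 102 and 63 in WT. It averaged 3.99 ± 0.82 CPM for mut and 7.69 ± 0.33 CPM for WT, and its log2 fold change of −0.95 (SE 0.17) was the smallest of the 10. PRR4 lies below the PRH1 span, and RefSeq lists a readthrough transcript, PRH1-PRR4, that joins the 2 genes.

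Pooled over libraries, no member's share of the summed count differed between the groups by more than 3 percentage points. TAS2R30 made up 17.9% of the member reads in mut and 18.3% in WT, PRR4 17.9% in mut and 15.4% in WT, and TAS2R14 14.4% in mut and 12.9% in WT. TAS2R13 made up 3.95% in mut and 5.61% in WT. The other 6 genes each differed by less than 1 percentage point between the pooled groups.

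**Figure D2:**
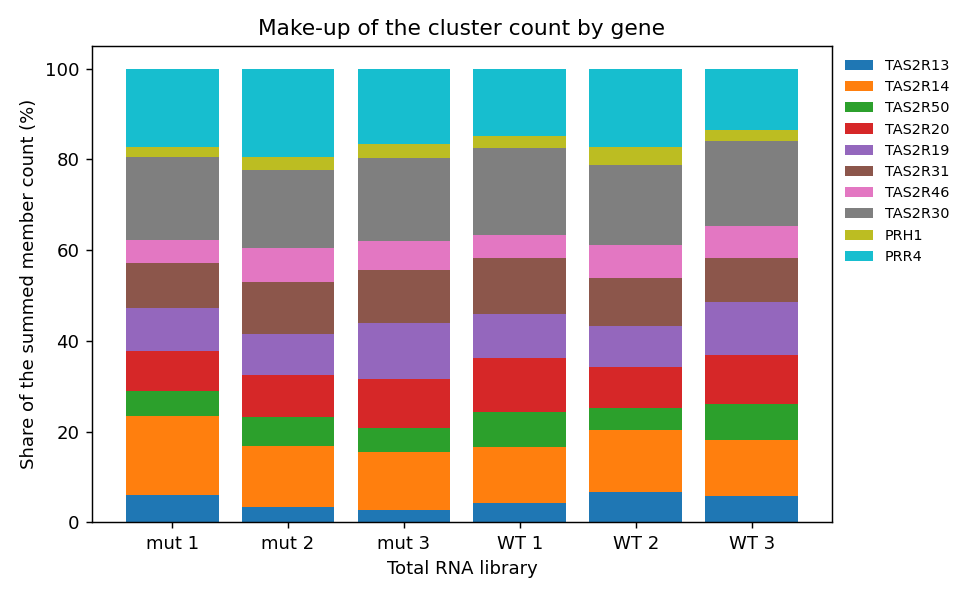
Share of the summed member count (%) taken by each of the 10 genes in each total RNA library, mut libraries on the left and WT libraries on the right. TAS2R30 takes 17.2% to 19.0% of each library, while the smaller band of TAS2R13 runs from 2.67% to 6.63% and that of TAS2R50 from 4.93% to 7.92%.

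Per kilobase of RefSeq span, the receptors kept nearly the same order in both groups. In mut cells TAS2R31, TAS2R30 and TAS2R19 led with 2.44, 2.36 and 2.25 CPM per kb, followed by TAS2R14, TAS2R46 and TAS2R50 with 1.73, 1.53 and 1.30, then TAS2R20 with 0.915 and TAS2R13 with 0.534. In WT cells TAS2R30, TAS2R31 and TAS2R19 led with 5.57, 5.42 and 5.24 CPM per kb, TAS2R46, TAS2R50 and TAS2R14 followed with 3.55, 3.55 and 3.51, and TAS2R20 and TAS2R13 had 2.30 and 1.72. Within the leading 3 and the following 3 the libraries of neighbours overlapped in both groups. In mut, TAS2R19 and TAS2R14, TAS2R50 and TAS2R20, and TAS2R20 and TAS2R13 did not overlap. In WT, TAS2R14 and TAS2R20 were the 1 neighbouring pair without overlap. The spans are RefSeq's, while the exon models behind the counts are not stated, so levels per kb are approximate.

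Fold changes of the receptor loci inside the PRH1 span are given next. The 12 tested receptor loci there, members and others, had log2 fold changes between −1.66 and −1.003 with a median of −1.21. As 8 of them are members chosen from this contrast, nothing is read from that range. The other 4, with a median of −1.28, are TAS2R43, a receptor for saccharin and aloin, and the pseudogenes TAS2R64P, TAS2R63P and TAS2R15P. They are not members but share the libraries and the locus with the members. The lists were also chosen with earlier results of these data known. The p-values of these 4 are therefore no independent support for the members. All 4 fell in mut (edgeR adjusted p over all genes), where 14.2% of all genes tested fell. Neither TAS2R63P nor TAS2R43 had enough reads in each mut library to pass the count filter without WT. Nothing is therefore read from this count of 4. TAS2R64P had 24, 25 and 21 reads in mut and 68, 85 and 57 in WT (−1.36, SE 0.19, edgeR adjusted p = 5.4e-06), and TAS2R15P had 16, 16 and 15 in mut and 62, 57 and 42 in WT (−1.55, SE 0.23, edgeR adjusted p = 1.6e-05). Neither pair of groups overlapped. TAS2R63P had 7, 13 and 8 reads in mut and 30, 27 and 19 in WT (−1.21, SE 0.32, edgeR adjusted p = 0.0055), but DESeq2 did not call it (adjusted p = 0.056). TAS2R43 had 5, 10 and 13 reads in mut and 32, 24 and 10 in WT, with overlapping groups (−1.003, SE 0.37, edgeR adjusted p = 0.047). Its call was lost in DESeq2 (adjusted p = 0.20) and in edgeR when mut library 1 (0.22), mut library 2 (0.063) or WT library 1 (0.33) was left out.

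**Figure D3:**
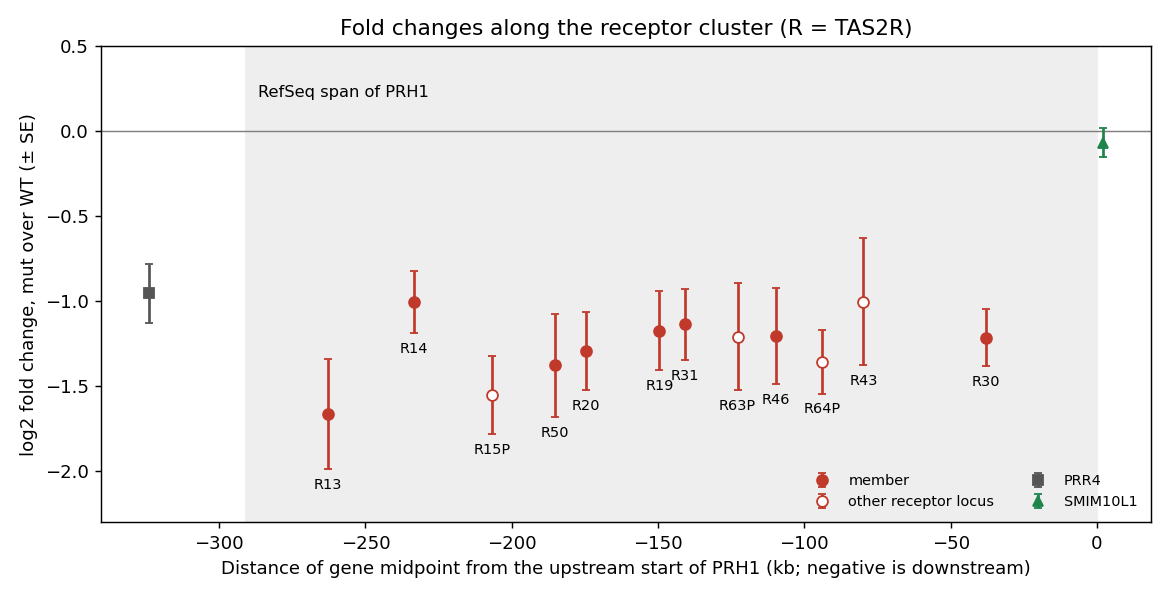
log2 fold change of mut over WT with its standard error for the 12 tested receptor loci, PRR4 and SMIM10L1, against the distance of the gene midpoint from the upstream start of PRH1 in kb; filled circles are members and the shaded band is the PRH1 span. All receptor loci inside the band lie at or below −1.003, and SMIM10L1 at the band's right edge lies at −0.07.

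The gene at the upper edge of the span did not pass the test. SMIM10L1, which encodes a small membrane protein, starts on the plus strand and overlaps the first 418 bases of PRH1. It had 329, 286 and 313 reads in mut and 391, 434 and 306 in WT, or 35.4 ± 1.64 CPM in mut and 37.3 ± 3.23 CPM in WT (−0.07, SE 0.08, edgeR adjusted p = 0.58). The groups overlapped. The chromosome 12 receptor genes outside the PRH1 span were at or near 0. TAS2R42, above it, was at 0 in all 6 libraries. Below PRR4, TAS2R7, TAS2R8 and TAS2R9 had 1, 1 and 0 reads over the mut libraries and 0, 4 and 1 over the WT libraries, and TAS2R10 had 3, 3 and 3 in mut and 8, 3 and 4 in WT, too few for a comparison.

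Farther out, 27 other genes within 2 Mb of the cluster could be tested, and their median log2 fold change was −0.03. In mut 3 rose and 5 fell, while 13.0% of all tested genes rose and 14.2% fell. On the lower side, the nearest tested gene YBX3, which encodes a cold shock domain protein, was at −0.16 (SE 0.06, edgeR adjusted p = 0.054). CLEC2D, which encodes a lectin-like ligand of natural killer cells, fell by 0.99 (SE 0.18, edgeR adjusted p = 0.00023), the Polycomb gene PHC1 by 0.31 and the autophagy gene GABARAPL1 by 0.32, while KLRK1-AS1 and the kinase-like gene STYK1 rose by 0.52 and 0.90. On the upper side, the nearest tested gene, the transcription factor ETV6, fell by 0.45, the orphan receptor gene GPR19 fell by 1.05, and GPRC5A rose by 0.39. Only the calls of CLEC2D and GPRC5A held in DESeq2 and without each library in turn; each of the other 6 was lost in DESeq2 (adjusted p = 0.087 to 0.16) and without at least 1 library. These were mut library 1 for KLRK1-AS1, WT library 2 for GPR19, mut library 3 or WT library 1 for STYK1, mut library 3, WT library 1 or WT library 3 for GABARAPL1, those and mut library 1 for PHC1, and mut library 1, mut library 2, WT library 1 or WT library 3 for ETV6.

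**Figure D4:**
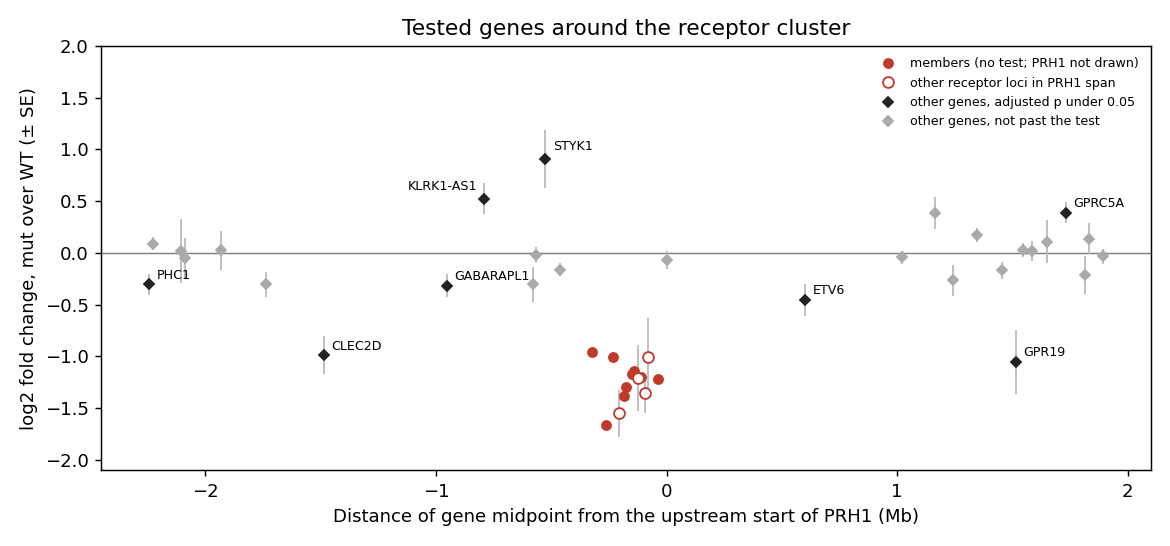
log2 fold change of mut over WT for tested genes within 2 Mb of the cluster, against the distance of the gene midpoint from the upstream start of PRH1 in Mb; vertical bars are standard errors of the non-members, and PRH1 is not drawn. The members lie between −1.66 and −0.95. They were chosen from this contrast, so nothing is read from their distance to the other genes. SMIM10L1, at the edge of the PRH1 span, lies at −0.07. Genes beyond the cluster scatter around 0, with CLEC2D and GPR19 near −1.

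Fold changes of all tested genes by width are given as background. The 725 tested genes with a RefSeq span of 200 to 400 kb, the range that holds PRH1, had a median log2 fold change of −0.09, and 0.966% of them were below −0.9, against 1.26% of all tested genes. The 3097 tested genes with a span of up to 10 kb, the range that holds the other 9 members, had a median of 0.08, and 1.78% of them were below −0.9. Of all reads in the count files, gene rows and others, those outside annotated features made up 12.3% to 13.7% in mut and 16.6% to 19.4% in WT. Reads with several alignments, which near-identical receptor copies lose, made up 37.3% to 42.0% in mut and 30.5% to 39.5% in WT, and reads overlapping several genes 8.60% to 9.86% in mut and 6.90% to 8.28% in WT. The part of these shares in the members' lower counts was not tested. Values of single receptor copies are therefore uncertain, and although the libraries were strand-specific, the strand setting of the counting is not stated.

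Of the 29 other bitter receptor genes and pseudogenes listed, 22 were matched to a counted gene and 5 had enough reads for the test. Besides the 4 loci inside the PRH1 span, the 1 tested was TAS2R4 on chromosome 7, with 6, 7 and 12 reads in mut and 17, 20 and 13 in WT (−0.77, SE 0.35, edgeR adjusted p = 0.10). TAS2R4 passed the count filter through its WT reads. All 5 were lower at an unadjusted p under 0.05 in edgeR. The share of all tested genes at that threshold was not computed and 4 of the 5 share the PRH1 span, so nothing is read from this count. The neighbours of TAS2R4 were below the filter. TAS2R3 had 4, 1 and 7 reads in mut and 13, 17 and 8 in WT, and TAS2R5 had 6, 2 and 1 in mut and 6, 11 and 6 in WT. TAS2R3 was lower in mut without overlap between the groups, as were 21.2% of all tested genes. In a fit without the filter it was lower by 1.42 on the log2 scale (SE 0.45, edgeR adjusted p = 0.018). That fit did not call TAS2R4 (edgeR adjusted p = 0.15) or TAS2R5 (0.23). Of 15 receptor genes and pseudogenes outside the members in it, 5 were lower and 0 higher. Among all 31913 genes in that fit, 2113 were lower and 1677 higher. The 5 were TAS2R3 and the 4 loci inside the PRH1 span, so nothing is read from this count. TAS2R38, the receptor for the bitter compound phenylthiocarbamide, TAS2R16, TAS2R39 and TAS2R60 were at 0 in all 6 libraries.

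The 11 tested genes of the bitter signalling chain were within 0.5 of 0 on the log2 scale. The defining genes of taste cells were at or near 0. The gustducin gene GNAT3 and TRPM5 each had 0 reads in mut and 1 in WT, and the gamma subunit gene GNG13 had 1 in mut and 0 in WT. The phospholipase gene PLCB2 had 5, 5 and 4 reads in mut and 2, 7 and 0 in WT. The receptor chaperone genes RTP3 and RTP4 were at 0 throughout. Of 23 genes of the chain listed, 11 were tested, 2 rose and 0 fell in edgeR and in DESeq2, beside 13.0% of all tested genes that rose and 14.2% that fell in edgeR. At an unadjusted p under 0.05 in edgeR, 3 were higher and 1, GNAI1, was lower. The share of all tested genes at that threshold was not computed, so nothing is read from these counts. ITPR3, the inositol trisphosphate receptor of taste cells, rose to 71.6 ± 4.89 CPM in mut, against 56.8 ± 5.64 CPM in WT (0.33, SE 0.08, edgeR adjusted p = 0.0026). ADCY6, an adenylyl cyclase, rose to 43.0 ± 1.68 CPM in mut, against 30.3 ± 4.17 CPM in WT (0.49, SE 0.09, edgeR adjusted p = 0.00019). The others, among them the inhibitory G protein genes GNAI1, GNAI2 and GNAI3, the beta subunit genes GNB1 and GNB3, TRPM4, ADCY3, REEP1 and REEP2, lay between −0.18 and 0.22.

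**Figure D5:**
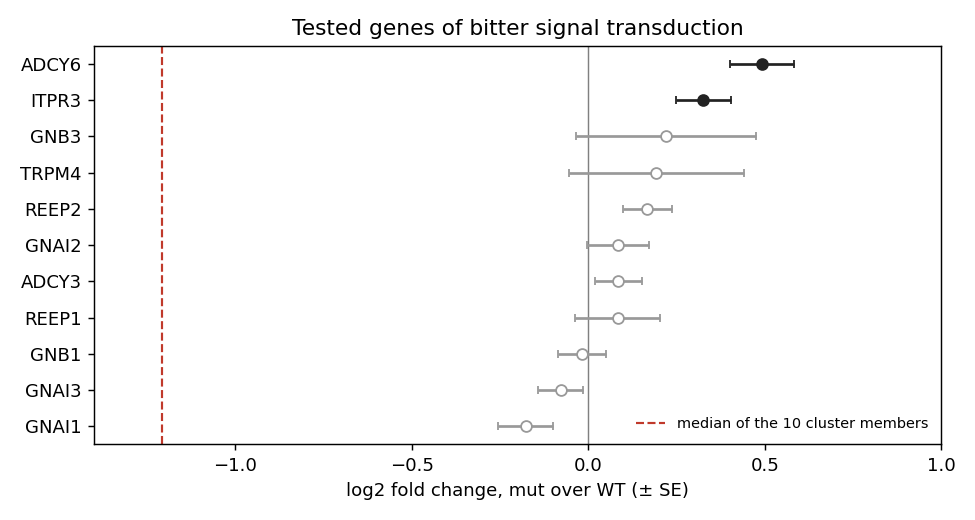
log2 fold change of mut over WT with its standard error for the 11 tested genes of bitter signal transduction; filled points passed the edgeR test at an adjusted p of 0.05, and the dashed line is the median of the 10 cluster members. The genes lie between −0.18 and 0.49, to the right of the dashed line at −1.21. The members were chosen from this contrast, so nothing is read from that distance.

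Salivary genes near and beyond the cluster were nearly silent. Of the 12 salivary protein genes listed, 10, among them PRB1, PRB2, PRB4 and STATH, were at 0 in all 6 libraries, PRB3 had 0 reads in mut and 2 in WT, and PRH2, which lies inside the PRH1 span on the plus strand, had 1 in mut and 2 in WT. Of 9 markers of type II taste and tuft cells, 2 were tested, and POU2F3, a transcription factor of these cells, rose to 2.18 ± 0.43 CPM in mut, against 0.858 ± 0.61 CPM in WT (1.197, edgeR adjusted p = 0.016); the call was lost in DESeq2 (adjusted p = 0.081) and when mut library 2 (0.057), WT library 3 (0.069) or WT library 1 (0.089) was left out. The 9 markers summed to 20.1 to 24.9 CPM in mut and 18.4 to 20.1 CPM in WT, mostly from DCLK1, with IL25 at 0. The 10 salivary acinar markers summed to 1.49 to 2.68 CPM in mut and 1.33 to 1.76 CPM in WT, with 7 at 0. Of 9 HEK293 markers 7 were tested and 6 rose in mut in edgeR, beside 13.0% of all tested genes. The calls of NEFL, INA and VIM held in DESeq2 and without each library. CDH2 was lost when mut library 2 (0.12), WT library 1 (0.073) or WT library 2 (0.058) was left out. KRT18 was lost without mut library 1, mut library 3 or WT library 1, and KRT8 in DESeq2 and without mut library 1, mut library 2, WT library 1 or WT library 3. In edgeR both were also lost without the count filter (adjusted p = 0.062 for KRT18 and 0.084 for KRT8) and with a replicate block (0.075 and 0.089). Among the others, NEFM and PAX2 had too few reads to test and LHX1 had an edgeR adjusted p of 0.12. Of 4 fibroblast markers the collagen genes COL1A1 and COL3A1 rose in mut by 0.83 and 2.03 (edgeR adjusted p = 0.033 and 0.0011), beside 13.0% of all tested genes. The call of COL1A1 was lost in DESeq2 (adjusted p = 0.16) and without mut library 1, mut library 2, WT library 1 or WT library 3. COL3A1 had 13, 13 and 10 reads in mut and 3, 4 and 3 in WT, and DESeq2 gave it no adjusted p. DCN and LUM were at 0, and the 4 blood cell markers had 0 to 2 reads per library. The part of these marker shifts in the members' lower counts was not tested.

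In the small RNA libraries, 3 features overlap the cluster, 1 of them a locus reconstructed from reads inside PRR4, and all had 0 fragments in all 6 libraries. At 503699 to 1219718 fragments per mut library and 493314 to 585737 per WT library, a count of 0 allows up to 2.46 to 5.96 FPM (fragments scaled to depth) in mut and 5.12 to 6.08 in WT, for counting error only. The small RNA assay therefore gave no comparison for the cluster.

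The 5 non-member genes whose pattern over the 6 total RNA libraries was nearest to the members' summed count lay on other chromosomes. By the root mean square distance between centred log2 CPM values they were RN7SL751P (0.05), ZNF93 (0.08), LRP1B (0.08), XIST (0.09) and CXXC4 (0.09). RN7SL751P had only 6, 8 and 7 reads in mut and 23, 27 and 25 in WT. Its log2 fold change was −1.60, beside −1.19 for the summed members. The 0.5 CPM added before the log narrows differences at such low counts, so its first rank is uncertain. TAS2R64P ranked 6 of 14399 genes, TAS2R15P 45 and TAS2R63P 80, while TAS2R43 ranked 3116. LRP1B, which encodes a large endocytic receptor, had 181, 198 and 183 reads in mut and 493, 552 and 404 in WT, close to the summed member counts in each library.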

How the data were processed

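Per the submitters' processing notes, the tools were HTSeq 0.6.1 and STAR 2.4.0, with CASAVA 1.8.2, FastQC 0.11.3, SAMtools 1.2-10 and DESeq2 1.8.2, and the build was hg38. Which tool did what, the annotation version and the strand setting are not stated there. The total RNA files deposited by the authors hold raw counts per Ensembl gene. Rows that name no gene, 57.8% to 63.2% of reads, were left out. For small RNA the authors deposited fragment counts, FPM (a depth-scaled signal) and FPKM per feature; the fragment counts and the library totals behind the FPM signal were used.

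Symbols were matched for 56321 of 60483 genes and RefSeq (GRCh38.p14) coordinates for 13420 of the 14409 genes tested; genes without coordinates are not among the flanking genes. Mut was compared with WT by edgeR 4.0.16 (quasi-likelihood F test, TMM, filterByExpr, R 4.3.3), with Benjamini-Hochberg adjustment over all tested genes at 0.05, two-sided. Fold changes are mut over WT; standard errors come from the fold change and its F statistic. The fit was tested on simulated data. Alternatives were DESeq2 1.42.0, its size factors, no count filter, a replicate block and leaving out each library. No replicate pair agreed within sampling noise (chi-square per degree of freedom 1.87 to 3.97).

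The members and lists were chosen with earlier results of these data known. The text names all members, every tested gene of the receptor, salivary and signalling lists (others after their values were seen), up to 8 flanking genes per side past the test with the nearest one, and the 5 genes nearest in pattern by root mean square distance of log2(CPM + 0.5). Promoter windows are the 250 bases before RefSeq starts, aligned globally with Biopython 1.88.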

Additional observations from a re-analysis of the deposited data

How the results depend on the processing

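The summed member count kept a log2 ratio of −1.29 to −1.08 when each library was left out in turn, −1.19 with DESeq2 size factors and −1.28 without TAS2R14, PRH1 and PRR4. The members' fold changes under alternatives ran from −1.98 to −0.85; their sign was set by the choice of members. The neighbours counted here are the 32 tested non-members within 2 Mb, which include the 4 receptor loci inside the PRH1 span also counted as receptors outside the members. DESeq2 gave 2 lower receptor genes outside the members, 1 higher and 3 lower neighbours, and 1208 higher and 1258 lower genes in all, against 4, 3 and 9, and 1867 and 2049 in edgeR. A window of 5 Mb on each side held 13 higher and 11 lower genes of 82. Leaving out 1 library gave 3 to 5 lower receptor genes outside the members, 2 to 3 higher and 5 to 9 lower neighbours (5 without WT library 1), 2 to 3 higher signalling genes, and 1327 to 1832 higher and 1274 to 2109 lower genes in all (1274 without WT library 3). The cause of these shifts was not tested. Replicate numbers are shared between groups, and the labels do not say whether they pair the libraries. Correlations of same-numbered deviations from the group means were −0.25, −0.27 and 0.03. Deviations within each group sum to 0, so these values cannot decide on a pairing. The replicate block gave 1675 higher and 1845 lower genes, 4 lower receptor genes outside the members and 9 lower neighbours. No alternative was run for the small RNA features, which hold 0 fragments. With 4 to 42 reads per member in a mut library, depth limits single values.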
